A study of Mus musculus with 9 samples.

Results

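Potassium channels set the resting voltage of macrophages and let potassium leave the cell. In liver macrophages sorted from mice with diet-induced steatohepatitis, the makeup of the potassium channel transcripts differed from that in mice on a normal diet. The calcium-activated channel gene Kcnn4 went from 0.388, 0.926 and 1.78 FPKM (fragments per kilobase of transcript, scaled to the size of the library) in the 3 normal-diet libraries to between 104 and 125 FPKM in the 6 libraries from the disease diet. Kcnj16, Kcna2 and Kcnq1 lay between 17.6 and 56.7 FPKM in the normal-diet libraries and at most at 2.38 FPKM in those from the disease diet. The 10 genes described here are Kcnn4, Kcna2, Kcna3, Kcnq1, Kcne3, Kcnj16, Kcnj10, Kcnj2, Kcnk6 and Kcnk13, of 24312 genes in the table. They were picked by name with their values in these libraries known, so their differences between the diets are given as a description without a test.

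The libraries came from wild-type male C57BL/6J mice, 6 to 12 weeks old when the diet began, with no transgene. Liver macrophages had been sorted by low Ly6C and positive F4/80 staining. Mice were kept on a normal diet (ND), or for 7 weeks (7w) or 10 weeks (10w) on CDA-HFD, which is rich in fat, lacks choline, holds defined amino acids and causes steatohepatitis with fibrosis. Each group held 3 libraries. Per the study each replicate was a separate mouse. The sort takes resident Kupffer cells and macrophages that came from monocytes alike, so a group is a mixture of cells. In such bulk samples, fewer cells of a type and less RNA per cell cannot be told apart.

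The depth was estimated from the steps of low values at 5403247 to 6209001 reads per library, and 1 FPKM on a 2 kb transcript rested on 9.7 to 11.2 reads. Summed markers of all macrophages lay at 2017 to 2131 FPKM in ND and at 1760 to 1926 FPKM on CDA-HFD (5 of 8 genes fell and none rose). Markers of resident Kupffer cells summed to 2533 to 2680 FPKM in ND and to 1186 to 1472 FPKM on CDA-HFD (10 of 11 genes fell). Those of lipid-associated macrophages summed to 261 to 297 FPKM and to 1439 to 1679 FPKM (8 of 8 rose), and those of monocytes to 246 to 264 FPKM and to 621 to 728 FPKM (6 of 8 tested rose, 1 fell). Hepatocyte markers fell in 7 of 9 tested genes, from a sum of 232 to 491 FPKM to 105 to 157 FPKM, while 1 rose. Endothelial markers summed to 149 to 179 FPKM in ND and 74.8 to 187 FPKM on CDA-HFD, where 4 of 8 rose and 2 fell. Stellate cell markers summed to 4.05 to 8.85 FPKM in ND and 11.8 to 29.2 FPKM on CDA-HFD, where 3 of 4 tested rose and 1 fell. Cholangiocyte markers were near 0: their sum was at most 2.73 FPKM in any library, and 6 of 8 genes stayed under 1 FPKM throughout. The counts of markers that rose or fell are limma calls (adjusted p under 0.05). Of all tested genes, 22.8% rose and 24.3% fell on CDA-HFD. Some markers that rose, among them Spp1, Chil3, F13a1 and Col3a1, reached the level needed for a test only through CDA-HFD. All differences between ND and CDA-HFD below lie alongside these shifts in markers, and the part of the shifts in them was not tested.

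Potassium channels are built from pore-forming subunits around a narrow selectivity filter through which potassium passes and sodium hardly does. Voltage-gated channels open when the membrane depolarizes, calcium-activated channels when calcium rises inside the cell, inward rectifiers hold the membrane near the potassium equilibrium, and two-pore-domain channels leak potassium at rest. Auxiliary subunits form no pore of their own and change how the pore opens. In macrophages, potassium efflux hyperpolarizes the cell, which favours calcium entry, and a fall in potassium inside the cell is a known trigger of the NLRP3 inflammasome.

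The selectivity filter is what these genes have in common. The coding bases around it are printed to show how alike this stretch is between members. Runs are given for 8 of the members. Each is the coding strand, 5′ to 3′, from the GENCODE transcript of the gene on GRCm38, 45 bases long, and the 15 bases in capitals code for the filter signature. Kcne3 codes for an auxiliary subunit and has no such stretch, and both two-pore-domain genes carry it at 2 places.
Kcnn4: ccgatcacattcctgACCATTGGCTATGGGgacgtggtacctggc
Kcna2: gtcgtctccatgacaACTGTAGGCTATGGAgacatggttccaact
Kcna3: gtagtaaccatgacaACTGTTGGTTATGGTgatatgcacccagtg
Kcnq1: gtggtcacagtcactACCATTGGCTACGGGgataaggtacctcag
Kcnj16: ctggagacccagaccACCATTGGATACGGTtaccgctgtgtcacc
Kcnj2: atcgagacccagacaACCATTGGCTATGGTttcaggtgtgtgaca
Kcnk6, first filter: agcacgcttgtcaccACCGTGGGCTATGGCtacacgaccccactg
Kcnk6, second filter: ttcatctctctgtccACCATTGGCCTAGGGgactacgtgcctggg
Kcnk13, first filter: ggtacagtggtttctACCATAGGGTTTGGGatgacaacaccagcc
Kcnk13, second filter: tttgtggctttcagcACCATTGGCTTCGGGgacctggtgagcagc

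Among these windows Kcnj16 and Kcnj2 shared 35 of 45 bases, Kcna2 and Kcna3 32, and Kcnn4 and Kcnq1 31. Kcnn4 and Kcnq1 belong to different classes, so a count over this short window does not show kinship. The mean FPKM of Kcnj16 was 40.2-fold lower on CDA-HFD than in ND while that of Kcnj2 was not lower, and Kcna2 was lower while Kcna3 was higher. Kcnj10, a further inward rectifier, was lower like Kcnj16. In the transcript with the longest coding sequence, no stretch of 75 bases, the read length, was shared with a transcript of another gene on either strand in 7 of the 10 members. In Kcnj16, 4 of 3627 such stretches were shared on the same strand and 4 on the opposite one, and in Kcnj10 17 and 6 of 5333. In Kcnq1, 51 of 2955 were shared, all with its antisense RNA Kcnq1ot1.

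Libraries of the 2 diets did not overlap for 9 of the 10 members. Kcnn4, Kcna3 and Kcne3 were higher in all 6 CDA-HFD libraries than in every ND library, and Kcna2, Kcnq1, Kcnj16, Kcnj10, Kcnk6 and Kcnk13 were lower in all 6. Kcnj2 overlapped. Of all 11783 genes tested, 40.6% did not overlap between the diets, and because the members were chosen with these values known, nothing is read from their count. All 10 members reached 1 FPKM in at least 3 libraries, the minimum for a test. For 4 of them, Kcnn4, Kcna2, Kcna3 and Kcne3, this held only through the diet on which they were high, whereas 6 reached it on both diets.

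**Figure D1:**
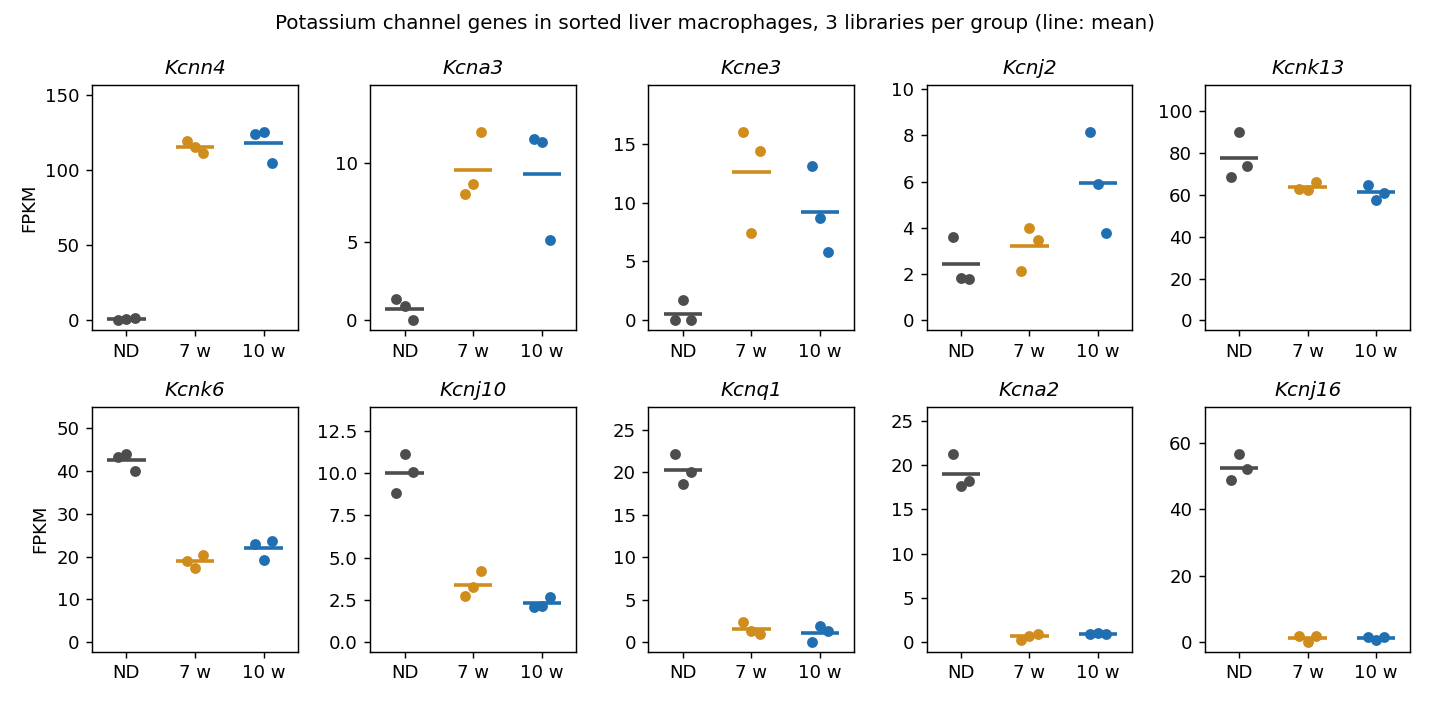
FPKM of the 10 potassium channel genes (y axis, linear, each panel with its own scale) in ND, 7 weeks and 10 weeks of CDA-HFD (x axis), with a point for each of the 3 libraries and a line at the mean. Kcnn4 lies between 104 and 125 FPKM on CDA-HFD and at most at 1.78 FPKM in ND, and Kcnj16 lies between 48.8 and 56.7 FPKM in ND and at most at 1.97 FPKM on CDA-HFD.

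Kcnn4 encodes KCa3.1, the intermediate-conductance channel that opens when calcium-bound calmodulin changes its shape. The gene lies on chromosome 7 (chr7:24370263-24386690, plus strand, GRCm38). At 7 weeks the libraries held 119, 115 and 112 FPKM, and at 10 weeks 124, 125 and 104 FPKM, against 0.388, 0.926 and 1.78 FPKM in ND. All CDA-HFD libraries were high and close together, and all ND libraries were low. By estimate the ND values rested on 4 to 17 reads and the CDA-HFD values on 1103 to 1344 reads. The group means were 1.03 ± 0.70 (SD, n = 3) in ND, 115 ± 3.92 at 7 weeks and 118 ± 11.7 at 10 weeks, a 113-fold difference in mean FPKM that has little precision because the ND reads were few. On the log2(FPKM + 1) scale, which compresses differences at low levels, the difference was 5.90 at 7 weeks and 5.92 at 10 weeks. The genes whose 9 values lay closest to those of Kcnn4, by Euclidean distance on the log2(FPKM + 1) scale, were Clec4e, which encodes the receptor Mincle, at a distance of 1.08, and Adam8, which encodes a membrane metalloprotease, at 1.29. Clec4e had mean levels of 1.37, 120 and 101 FPKM in ND, at 7 weeks and at 10 weeks.

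Kcna3 encodes Kv1.3, the voltage-gated channel best known from T cells, which is also present in macrophages and microglia. Its values were 1.35, 0.918 and 0 FPKM in ND, 8.04, 8.68 and 12 FPKM at 7 weeks, and 11.5, 11.4 and 5.08 FPKM at 10 weeks. All CDA-HFD libraries were above all ND libraries, and 10w 3 was the lowest of them. Of 7 tested markers of T, NK and B cells, 1 rose by limma (Klrb1c, an NK cell receptor gene, from a mean of 1.89 FPKM in ND to 6.80 FPKM at 10 weeks) and 3 B cell genes fell, with a summed level of 34.8 to 39.7 FPKM in ND and 14.4 to 50.9 FPKM on CDA-HFD. Of all tested genes, 22.8% rose and 24.3% fell. The part of these lymphoid markers in the values of Kcna3 was not tested. Its relative Kcna2 encodes Kv1.2, a channel of axons. Kcna2 held 21.2, 17.6 and 18.2 FPKM in ND, 0.304, 0.719 and 0.928 FPKM at 7 weeks, and 0.963, 1.0 and 0.874 FPKM at 10 weeks. All ND libraries were high, all CDA-HFD libraries were near the lower end of what the depth resolves (7 to 25 reads by estimate), and the mean was 23.8-fold lower than in ND. The closest genes in pattern to Kcna2 were Slc22a17 (distance 1.06), which encodes a lipocalin receptor, and Rgl3 (1.11).

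Both genes lie side by side on chromosome 3, Kcna3 at chr3:107036169-107038070 and Kcna2 at chr3:107101146-107115005, both on the plus strand with 63.1 kb and no other protein-coding gene between them. Kcna3 made up 0% to 5.96% of the summed FPKM of the pair in ND and 85.3% to 96.4% on CDA-HFD. The dominant Kv1 transcript of the pair was thus Kcna2 in every ND library and Kcna3 in every CDA-HFD library.

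Kcnq1 encodes Kv7.1, the slowly activating channel of heart and epithelia. Its values were 22.2, 18.6 and 20.1 FPKM in ND, 2.38, 1.29 and 0.919 FPKM at 7 weeks, and 0, 1.86 and 1.32 FPKM at 10 weeks. The ND libraries were all high and none of the CDA-HFD libraries came near them. Exons of Kcnq1 overlap those of the antisense RNA Kcnq1ot1, and the library kit does not mark strand. Kcnq1ot1 was listed at no more than 0.479 FPKM in any library. The genes closest in pattern were Ripply3 (distance 1.48) and Cenpv (1.54).

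Kcne3 encodes a single-span auxiliary subunit that holds Kv7.1 open in epithelia. It was listed at 0, 1.74 and 0 FPKM in ND, and lay at 16.0, 7.38 and 14.4 FPKM at 7 weeks and 13.1, 8.67 and 5.81 FPKM at 10 weeks. All CDA-HFD libraries were higher than ND 2, the only ND library with any signal. By estimate the CDA-HFD values rested on 40 to 97 reads. The subunit and its pore therefore took opposite directions: Kcne3 was 0% to 8.53% of the sum of Kcne3 and Kcnq1 in ND and 81.5% to 100% on CDA-HFD. Some exons of Kcne3 overlap Gm34821 on the opposite strand, where unstranded reads of the 2 cannot be told apart. Mctp1 was among the genes closest in pattern to Kcne3 (distance 1.52).

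Among the inward rectifiers, Kcnj16 encodes Kir5.1, a subunit that makes channels mainly together with Kir4.1, the product of Kcnj10. Kcnj16 held 48.8, 56.7 and 52.2 FPKM in ND, 1.97, 0.10 and 1.96 FPKM at 7 weeks, and 1.60, 0.646 and 1.58 FPKM at 10 weeks. It was the second most abundant member in ND and among the lowest on CDA-HFD, and the group means were 52.6 ± 3.96 (SD, n = 3), 1.34 ± 1.07 and 1.28 ± 0.55 FPKM. In 7w 2 its value rested on about 2 reads. The genes closest in pattern to Kcnj16 were Sdc2 (distance 1.28), which encodes the proteoglycan syndecan-2, and Ptgis (1.67), which encodes prostacyclin synthase.

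Kcnj10 differed less, with 8.85, 11.1 and 10.1 FPKM in ND, 2.73, 3.25 and 4.19 FPKM at 7 weeks, and 2.07, 2.15 and 2.66 FPKM at 10 weeks. The groups did not overlap, and the mean was 3.53-fold lower on CDA-HFD. The balance of the 2 partner transcripts moved with this: Kcnj16 was 83.6% to 84.7% of their sum in ND and 3.00% to 43.5% on CDA-HFD. Kcnj16 thus exceeded Kcnj10 in every ND library, and Kcnj10 exceeded Kcnj16 in every CDA-HFD library.

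Kcnj2 encodes Kir2.1, the classical strong inward rectifier of macrophages. Its values were 3.63, 1.82 and 1.81 FPKM in ND, 2.15, 3.98 and 3.49 FPKM at 7 weeks, and 8.14, 5.89 and 3.79 FPKM at 10 weeks. The 10-week libraries were above all ND libraries, while 7w 1 and 7w 3 were below ND 1. Without ND 1 the diets no longer overlapped. Kcnj2 lies on chromosome 11 (chr11:111066164-111076821), 38.2 kb from Kcnj16 (chr11:110968033-111027968) on the same strand and with no protein-coding gene between. As for Kcna3 and Kcna2, neighbours on the chromosome did not share a course.

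Kcnk13 encodes THIK-1, the two-pore-domain channel of microglia whose potassium leak supports inflammasome activation there. It was the most abundant of the members in ND, with 68.4, 90.0 and 73.9 FPKM, and held 62.7, 62.2 and 65.9 FPKM at 7 weeks and 64.8, 57.6 and 61.0 FPKM at 10 weeks. The CDA-HFD libraries all lay just below ND 1, with ND 2 standing above the other ND libraries. The difference of −0.30 on the log2 scale became −0.19 without ND 2. Kcnk6 encodes TWIK-2, the leak channel tied to ATP-driven potassium efflux in mouse macrophages. It held 43.3, 44.1 and 40.1 FPKM in ND, 19.0, 17.3 and 20.5 FPKM at 7 weeks, and 22.9, 19.2 and 23.8 FPKM at 10 weeks. The groups were tight and apart, and the mean was 2.08-fold lower on CDA-HFD.

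**Figure D2:**
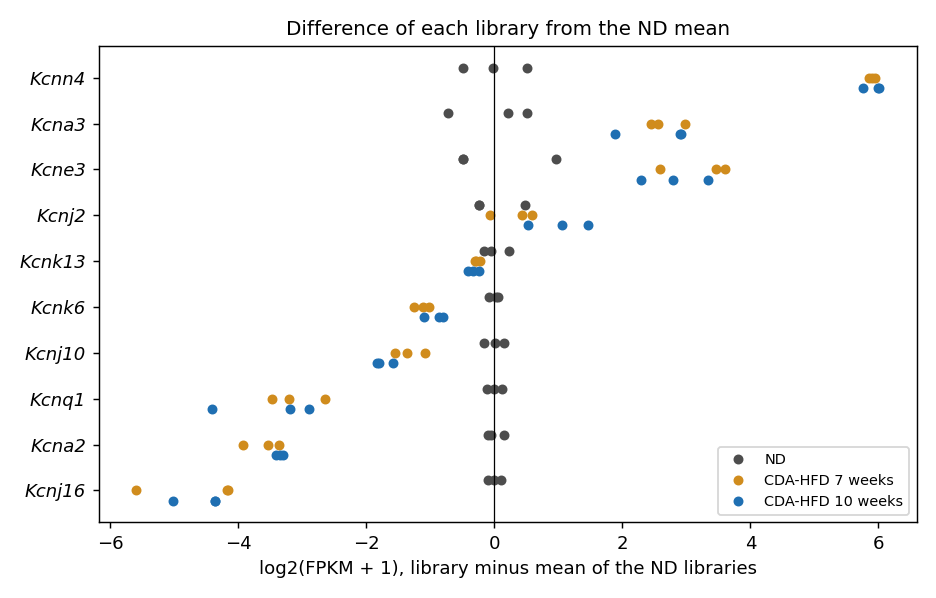
Difference of each library from the mean of the 3 ND libraries on the log2(FPKM + 1) scale (x axis) for the 10 members (y axis), with ND in grey, 7 weeks in orange and 10 weeks in blue. Kcnn4 is highest at 5.90 (7 weeks) and 5.92 (10 weeks) on average, Kcnj16 lowest at −4.65 and −4.59, and Kcnk13 close to 0 at −0.27 and −0.33.

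The order of levels changed with the diet. FPKM is per transcript length, so members can be ranked within a group. In ND the order was Kcnk13, Kcnj16, Kcnk6, Kcnq1, Kcna2, Kcnj10, Kcnj2, Kcnn4, Kcna3 and Kcne3. The library ranges overlapped between Kcnq1 and Kcna2 and among Kcnn4, Kcna3 and Kcne3, so these neighbours did not differ beyond their spread. At 7 and at 10 weeks Kcnn4 came first, followed by Kcnk13 and Kcnk6, each apart from the next. Below them Kcne3 and Kcna3 overlapped at 7 weeks, and Kcna3, Kcne3 and Kcnj2 at 10 weeks. Kcnj16, Kcnq1 and Kcna2 were at the bottom of both orders and overlapped.

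Summed over all listed pore-forming subunits, the level changed less than its makeup. The sum was 236 to 256 FPKM in ND, 214 to 227 FPKM at 7 weeks and 210 to 242 FPKM at 10 weeks. Every 7-week library thus lay below every ND library. The sum was not corrected for removal of duplicates, which compresses abundant genes. Kcnn4 made up 0.164% to 0.751% of it in the ND libraries, 49.3% to 53.8% after 7 weeks of CDA-HFD and 49.6% to 54.4% after 10. Kcnj16 was 20.6% to 22.1% of it in ND and at most 0.878% on CDA-HFD. Kcnk13 kept 25.0% to 35.1% of it in all libraries. By class, voltage-gated subunits went from 46.2 to 56.1 FPKM in ND to 11.5 to 16.7 FPKM on CDA-HFD, inward rectifiers from 66.9 to 73.4 FPKM to 7.48 to 13.1 FPKM, and two-pore-domain channels from 114 to 136 FPKM to 79.3 to 88.0 FPKM. Auxiliary subunits, not part of the sum, went from 13.1 to 19.6 FPKM to 36.4 to 48.1 FPKM. The members made up 92.1% to 99.2% of the sum, so the values of the pore-forming classes follow from the members' own. The auxiliary values rested mostly on Kcnab2, which is not a member (12.2 to 15.1 FPKM in ND, 27.8 to 30.7 FPKM on CDA-HFD).

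**Figure D3:**
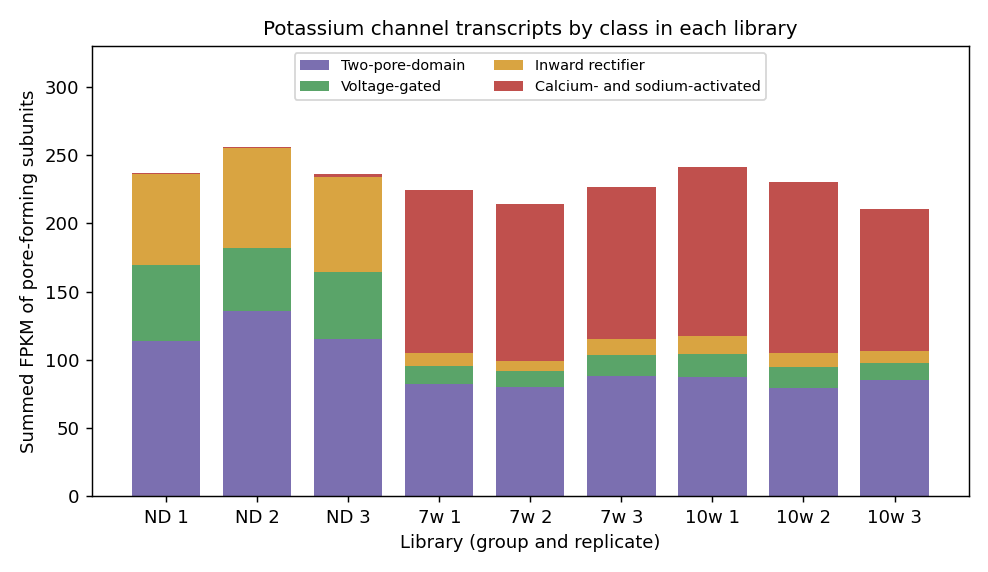
Summed FPKM of pore-forming potassium channel subunits (y axis, from 0) in each of the 9 libraries (x axis), stacked by class. The bar height stays between 210 and 256 FPKM. The calcium-activated class goes from at most 2.47 FPKM in ND to at least 104 FPKM on CDA-HFD, where it is nearly all Kcnn4.

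The time on the diet was compared over 3 libraries each. No member passed at 10 against 7 weeks (0 of 10, limma, two-sided, Benjamini-Hochberg adjusted p under 0.05), none had an unadjusted p under 0.05, and the lowest adjusted p was 0.336. Kcna2, Kcnj16 and Kcnq1 were at most at 2.38 FPKM at both times, near the lower end of what the depth resolves. The log2(FPKM + 1) scale compresses differences at that level, so a change in these genes could be missed. Of all tested genes, 0.127% (15 of 11783) were called, and 1829 had an unadjusted p under 0.05. The median absolute log2 difference was 0.23 over the members and 0.16 over all tested genes. The median signed difference of all tested genes was −0.01. On simulated data of this comparison, 37.5% of planted 1.5-fold changes, 74% of 2-fold changes and 94% of 4-fold changes were recovered. Smaller changes would thus often be missed. Of the calls made there, 7.41%, 6.33% and 4.57% were false. The shares are over 200 planted genes and were not given for the members, whose spread differs.

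Kcnj2 had the largest difference in this contrast, 0.70 on the log2 scale (95% interval −0.02 to 1.42, limma adjusted p = 0.336). Kcnn4 differed by 0.03 (−0.41 to 0.46, limma adjusted p = 0.970). For Kcnk13 the interval was −0.26 to 0.15 and for Kcnk6 −0.07 to 0.48. Kcnj10 was lower in every 10-week library than in every 7-week library, with a difference of −0.40 (−0.93 to 0.12, limma adjusted p = 0.456). It was the only member whose 2 time points did not overlap, and 20.6% of all tested genes showed such a separation. The widest interval was that of Kcne3, −1.36 to 0.53.

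**Figure D4:**
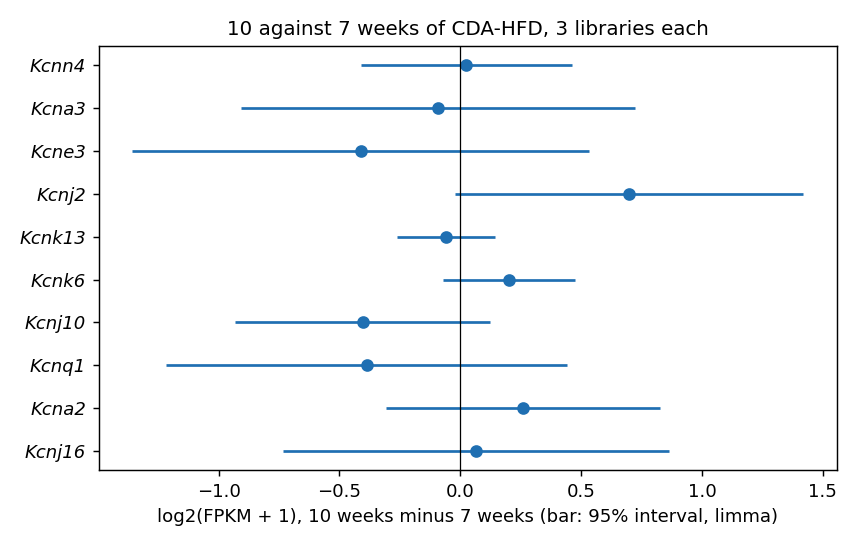
Difference between 10 and 7 weeks of CDA-HFD on the log2(FPKM + 1) scale (x axis) for the 10 members (y axis), with the limma estimate as a point and its 95% interval as a bar, 3 libraries per group. Every interval includes 0, and that of Kcnj2 (−0.02 to 1.42) barely does.

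Most of the potassium channel family was listed at or near 0. Of 101 listed potassium channel genes, 59 were listed at 0 in all 9 libraries, and only 14 could be tested, the 10 members and 4 others. Of these 4, 1 rose and 2 fell on CDA-HFD. Of all tested genes 22.8% rose and 24.3% fell, and 4 genes are not a basis for a statement on the family. Kcnj9, among those that fell, reached the minimum for a test only through ND. The same 1 and 2 genes were called at 7 weeks (21.3% of tested genes rose and 22.4% fell) and at 10 weeks (19.3% and 20.6%), comparisons that share the ND libraries. None was called at 10 against 7 weeks by limma, and none had an unadjusted p under 0.05 there.

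Kcnab2 encodes the Kv beta-2 subunit, which binds Kv1 channels such as those of Kcna2 and Kcna3. It held 15.1, 13.9 and 12.2 FPKM in ND, 30.7, 29.6 and 28.8 FPKM at 7 weeks, and 28.7, 29.8 and 27.8 FPKM at 10 weeks. All CDA-HFD libraries were above all ND libraries, and Kcnab2 rose by 1.04 on the log2 scale (SE 0.11, limma adjusted p = 8e-06). Kcnj9 encodes Kir3.3, a subunit of channels gated by G proteins. It held 5.59, 3.40 and 5.84 FPKM in ND and at most 1.20 FPKM on CDA-HFD, where 2 libraries were listed at 0. Kcnj9 fell by 2.16 (SE 0.32, limma adjusted p = 0.000148). It reached 1 FPKM in 3 ND libraries and in only 1 on CDA-HFD. It thus entered the test only through the diet on which it was high, and nothing is read from its call. It lies 11.9 kb from Kcnj10 on chromosome 1 with no protein-coding gene between them, and both were lower in all CDA-HFD libraries.

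Kcng2 encodes Kv6.2, a subunit that makes no channel by itself and modifies Kv2 channels. It held 11.1, 7.86 and 10.1 FPKM in ND, 2.30, 0.333 and 1.55 FPKM at 7 weeks, and 1.30, 0.455 and 2.25 FPKM at 10 weeks. All ND libraries were above all CDA-HFD libraries, and Kcng2 fell by 2.25 (SE 0.34, limma adjusted p = 0.000158). Kcnab3, another Kv beta subunit gene, was not called (−0.50, SE 0.46, limma adjusted p = 0.408), with ND libraries from 0.0783 to 3.71 FPKM. The untested genes with the highest mean level were Kcnk12 and Kcnj8, which reached 1.61 and 1.93 FPKM in their highest library. Kcnab2, Kcnj9, Kcng2 and Kcnab3 each share exon sequence with another annotated gene, from which these unstranded reads may not separate them.

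A further 6 lists of genes that work with potassium channels were set beside them, 119 genes of which 67 were tested. On CDA-HFD, 12 rose and 32 fell by limma, against 22.8% and 24.3% of all tested genes. These counts include genes that reached the minimum for a test only through the diet on which they were higher, among them Best1, Cacna1s and Scn3b. At 10 against 7 weeks none was called by limma, and 8 had an unadjusted p under 0.05.

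The sodium-potassium pump builds the potassium gradient that channels dissipate. Of 10 tested pump and cotransporter genes, 3 rose and 6 fell (median −0.44, against −0.03 over all tested genes). Fxyd2, the pump's gamma subunit, fell by 2.79 and held 62.3 ± 6.50 FPKM (SD, n = 3) in ND, 8.92 ± 3.30 FPKM after 7 weeks and 9.75 ± 7.27 FPKM after 10 weeks. Slc12a2, the sodium-potassium-chloride cotransporter that imports potassium, fell by 1.34, and Slc12a7, a potassium-chloride cotransporter that exports it, fell by 1.12. Slc12a4, another cotransporter of the list, rose by 0.93, from 21.1 ± 4.76 FPKM in ND to 43.1 ± 5.68 FPKM at 10 weeks. Atp1b3, the most abundant gene of the list, fell by 0.36, from 216 ± 8.38 FPKM in ND to 158 ± 3.14 FPKM at 10 weeks.

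Calcium opens KCa3.1, and of the 20 tested calcium entry and release channels 11 fell and 1 rose (median −0.27). Trpm2, a calcium-permeable channel that senses oxidative stress, fell by 2.00 and held 77.6 ± 5.53 FPKM in ND, 18.2 ± 3.68 FPKM after 7 weeks and 19.2 ± 0.66 FPKM after 10 weeks. Itpr3, a release channel of the endoplasmic reticulum, fell by 1.85 and Trpv4, which responds to swelling and stretch, by 1.17. Tpcn1, a channel of endosomes and lysosomes, rose by 1.43, from 1.49 ± 0.08 FPKM in ND to 6.79 ± 1.0 FPKM at 10 weeks. P2rx4, the ATP-gated channel with the highest level of the list, fell by 0.13 (limma adjusted p = 0.0328). The call was lost without ND 2 (limma adjusted p = 0.195), with trimmed-mean scaling (0.136) and without trend and robust in limma (0.163). It was also lost with no filter on low values (0.0581) and without 7w 3 (0.0611) or 10w 1 (0.0649).

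Of 7 tested partners of KCa3.1, 3 rose and none fell (median 0.11), all by small amounts. Calmodulin is the channel's calcium sensor. Calm2 rose by 0.33, from 155 ± 4.99 FPKM in ND to 206 ± 7.25 FPKM at 7 weeks. Calm3 rose by 0.23 (limma adjusted p = 0.00912), though not without ND 2 (adjusted p = 0.0569). Nme2, a histidine kinase that activates the channel, rose by 0.22.

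Of 9 inflammasome genes linked to potassium efflux, 1 rose and 3 fell (median 0.05). Casp1, the protease of the inflammasome, fell by 0.39, from 114 ± 11 FPKM in ND to 88.8 ± 3.44 FPKM at 7 weeks. Il18, one of its substrates, also fell by 0.39, and the adaptor gene Pycard rose by 0.27. Casp4 fell by 0.37 with a limma adjusted p of 0.0463, a call lost in 12 of 18 alternatives, among them the omission of ND 1 (adjusted p = 0.174), ND 2 (0.0719) or ND 3 (0.0833) and a replicate block (0.0609). Il1b, the most abundant gene of the list, held 174, 143 and 283 FPKM in ND and 231 to 267 FPKM on CDA-HFD. It was not called (0.36, limma adjusted p = 0.203), but ND 3 stood above all other libraries, and without it the difference was 0.64 with an adjusted p of 4.38e-05.

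Among chloride and volume-regulated anion channels 2 of 15 tested rose and 8 fell (median −0.52). Best1, a calcium-activated chloride channel, rose by 2.20 and Clic4 by 1.39, while Ttyh2 and Ttyh3 of the tweety family fell by 1.16 and 1.05. Best1 reached the minimum for a test only through CDA-HFD, where it was higher, so nothing is read from its call. Clic1, the most abundant, was not called (0.04, limma adjusted p = 0.242). Among the other voltage-gated channels 2 of 6 tested rose and 4 fell (median −1.04). Hvcn1, the proton channel that balances the charge moved by the phagocyte oxidase, held 4.53, 4.42 and 5.65 FPKM in ND and 117 to 138 FPKM on CDA-HFD. It was low in every ND library and high in every CDA-HFD library, and Hvcn1 rose by 4.46 (SE 0.09, limma adjusted p = 6.22e-12). Cacna1s and Scn3b were low genes that fell by 1.45 and 1.12, and the call of Scn3b was lost without ND 2 (limma adjusted p = 0.0545). Both reached the minimum for a test only through ND, where they were higher, so nothing is read from their calls.

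**Figure D5:**
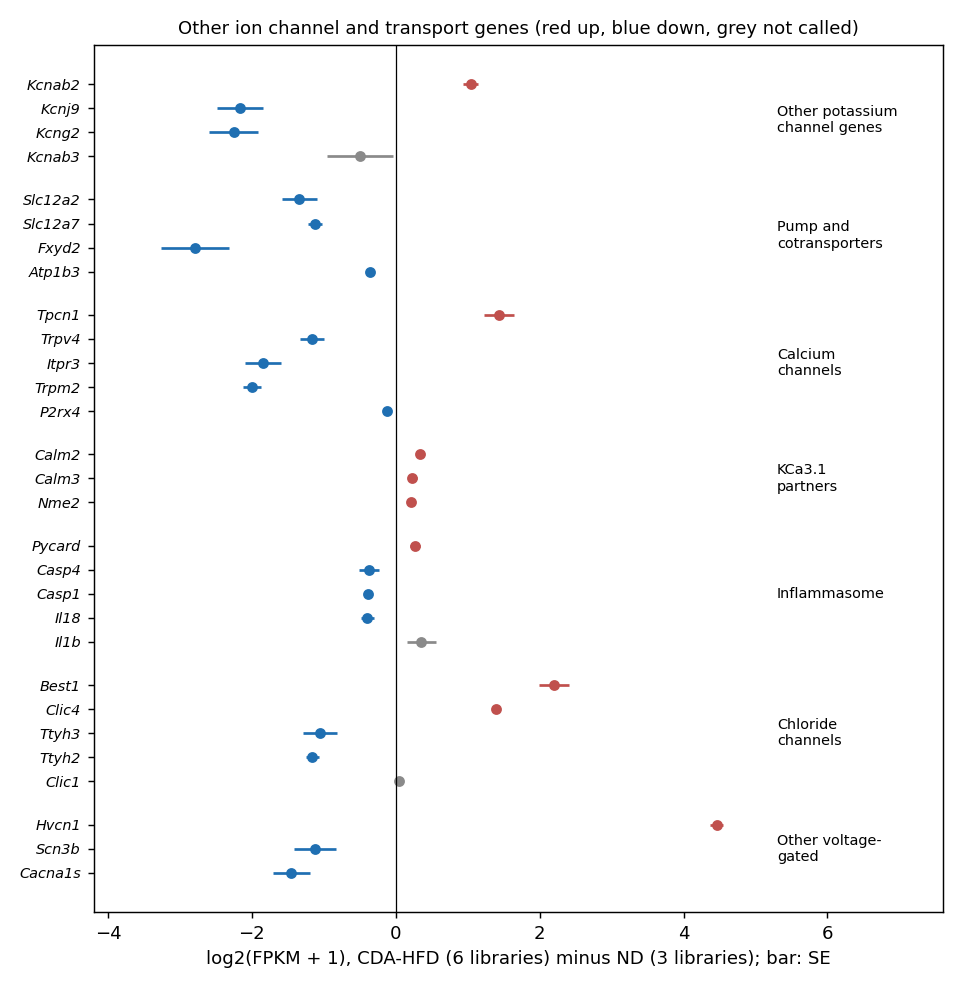
Difference between CDA-HFD (6 libraries) and ND (3 libraries) on the log2(FPKM + 1) scale (x axis) for genes named in the text from the other potassium channel genes and the lists of pumps, calcium, KCa3.1 partner, inflammasome, chloride and other voltage-gated genes (y axis); bars are limma standard errors. Of the genes plotted, Hvcn1 (4.46) stands furthest to the right and Fxyd2 (−2.79) furthest to the left. Kcnj9, Best1, Cacna1s and Scn3b reached the minimum for a test only through the diet on which they were higher.

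The promoter of Kcnn4 is shown because this member differed most between the diets. Promoters of RefSeq on GRCm38.p6 were matched for 8 of the 10 members, and the 250 bases before the start were searched on both strands for the motifs CACGTG (MITF and TFE factors), TGANTCA (AP-1), GCGNGGGCG (EGR), GAGGAAGT (PU.1) and the NF-kB motif. The run covers chr7:24370013-24370262 on the plus strand, 5′ to 3′, with CACGTG in capitals.
Kcnn4 promoter: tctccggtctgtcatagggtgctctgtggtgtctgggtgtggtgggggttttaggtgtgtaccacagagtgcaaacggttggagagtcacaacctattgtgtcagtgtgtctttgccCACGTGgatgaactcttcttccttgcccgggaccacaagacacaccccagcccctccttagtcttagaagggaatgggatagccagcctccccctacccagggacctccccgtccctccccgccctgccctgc

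CACGTG stood in the promoters of 2 of the 8 members, Kcnn4 and Kcnj2, and in those of 6.86% of all genes. TGANTCA stood in 1, Kcne3, against 7.82% of all genes. The letters of the other motifs were in none of the 8, against 5.33% (EGR), 2.79% (PU.1) and 0.41% (NF-kB) of all genes. The motifs do not overlap one another in these promoters, and a match is a description of the letters only.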

How the data were processed

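RNA of sorted liver macrophages was converted to cDNA with SMART-Seq HT, tagmented with Nextera XT and sequenced as single-end reads of 75 bases. The submitters' notes on processing name GRCm38, featureCounts (2.0.1), HISAT2 (2.2.1) and Trimmomatic (0.36.0). The study's methods name Cufflinks or featureCounts for the counts, and whether Cufflinks gave this table is not stated. They also name removal of duplicates with Picard, which compresses abundant genes. The authors deposited FPKM for each gene in 1 table of 9 libraries. The methods speak of TPM, but column sums were unequal (444816 to 458788).

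Of 24776 entries 1 was incomplete, 721 shared 257 symbols and were summed, and 24312 genes remained. Depth was estimated from low values, of which 56.6% to 64.0% lay within 0.1 read of a whole number, with an assumed fragment of 200 bases. Reads behind a value were calculated back from FPKM with 1 transcript length per gene, so they are rough. Gapdh was at most 1.18 FPKM in ND, so zeros are described as listed at 0 and not as absence.

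All libraries entered 1 limma model (3.58.1, R 4.3.3, lmFit and eBayes with trend and robust) of log2(FPKM + 1) with 3 group means, for the 11783 genes that reached 1 FPKM in 3 or more libraries. Called means a two-sided adjusted p (Benjamini-Hochberg) under 0.05. Members and lists were chosen with earlier results of these data known. All members were named. Of the other potassium channel genes the text names those called and up to 3 uncalled ones with the highest mean, of each further list up to 4 called genes with the largest difference and the most abundant one, and for the 5 members with the largest difference the 2 genes nearest in pattern. Kcnk12, Kcnj8 and Kcnab3 are the uncalled ones. Some items that these rules pick are not reported here. Alternatives were other pseudocounts, filters, scalings and variance models, a correction for the limit set by removal of duplicates, a replicate block, and leaving out each library.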

Additional observations from a re-analysis of the deposited data

How the results depend on the processing

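With at least 5 FPKM in 3 libraries as the filter, Kcnj9 was no longer tested and the other potassium channel genes that fell came to 1 in place of 2, against ND at 7 weeks, at 10 weeks and for both together. The count of those that fell was otherwise 2 or 3. Members called at 10 against 7 weeks stayed at 0 under all 9 alternative settings and all 9 omissions of a library. Members whose diets did not overlap stayed at 9, except for 10 without ND replicate 1. In the related lists 10 to 16 genes rose (16 with trimmed-mean scaling) and 23 to 32 fell (23 without ND replicate 2). The log2 difference of low members between the diets moved with the pseudocount: Kcnn4 had 6.89 with 0.1 and 4.34 with 5, and Kcnj16 −5.57 and −3.20. Corrected for the limit that removal of duplicates may set, Kcnn4 had 6.18. No called value and no member between the diets changed sign. At 10 against 7 weeks, where nothing was called, 4 members (Kcnn4, Kcna3, Kcnj16 and Kcnq1) and 2 other potassium channel genes (Kcng2 and Kcnj9) had the other sign in at least 1 alternative, as had 6 uncalled genes of the related lists between the diets. Replicate numbers did not pair the libraries, as deviations of same-numbered libraries correlated between −0.06 and 0.09. A model with the replicate number as a block called 0 members at 10 against 7 weeks, 1 and 2 other potassium channel genes, and 12 and 31 genes of the related lists. Depth limits values under about 1 FPKM, and changes of 1.5-fold were recovered in 37.5% of simulated cases.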
